A study of Sus scrofa with 28 samples.

Results

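The kidneys of minipigs that received a fat, fructose and cholesterol rich diet (FFC) and were made diabetic were compared with those of minipigs on a standard diet (SD). The comparison held 15 of the 28 animals of the series, 8 in the FFC-DIA group and 7 in the SD group, and 73 of the 77 assays of a qPCR panel. The other 4 assays were the candidate reference genes ACTB, GAPDH, RPL4 and TBP1. All animals were castrated male Göttingen Minipigs, a small pig strain, 7 months old at the start of a study of 13 months, and the kidney piece came from the left cortex. In the FFC-DIA group, streptozotocin, which destroys the insulin-producing beta cells, was given at 60 mg/kg on 3 days, and insulin glargine was dosed daily towards a fasting morning blood glucose of about 15 mM. The SD group received neither streptozotocin nor FFC. The FFC diet of the FFC-DIA animals held 1% cholesterol. The 13 FFC animals had no diabetes, and their diet held 2% cholesterol over the first 5 months and 1% after that, so they differ from FFC-DIA in the diet too. They are shown beside some values and were otherwise used only in 1 alternative limma fit. No diabetic animal was on standard diet, so the diet and the diabetes cannot be told apart within this pair of groups. The animals ran in 3 cohorts that the labels do not name, so the part of the cohort was not tested.

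Diabetic kidney disease involves high glucose in the tubule cells that reabsorb it, injury of the podocytes that hold the glomerular filter, a low-grade infiltration of macrophages and T cells, and a slow deposition of matrix that is driven in part by transforming growth factor beta. Cholesterol-rich diets add lipid to the same tissue. The 73 kidney genes of the panel were placed on 17 lists by their known role.

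The readout was the quantification cycle (Cq), which falls by 1 when the template increases 2-fold. A level was therefore expressed as a reference Cq minus the Cq of the gene, in log2 units, and set to 0 at the mean of the SD animals. On the reference-gene scale the reference was the average of that animal's Cq for the 3 assays ACTB, TBP1 and RPL4. On the panel-mean scale it was the mean Cq of the 73 kidney genes in the same animal, so a value shows a gene against the rest of the panel. Each kidney gene had a Cq in every animal, with gene means over the 15 animals from 6.86 to 20.2, and 3 genes had a mean above 18. In a piece of whole cortex, fewer cells of a type and less RNA per cell cannot be told apart. The test was an exact permutation of the difference in means, two-sided, over the 6435 possible splits of 8 and 7 animals, with Benjamini-Hochberg adjustment over the 73 genes. The smallest p that this test can give is 0.000155.

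The reference genes themselves were compared first. ACTB had a mean Cq of 5.70 ± 0.46 (SD, n = 8) in FFC-DIA and 5.65 ± 0.63 (SD, n = 7) in SD. TBP1 had 11.1 ± 0.40 and 11.5 ± 0.81, and RPL4 8.11 ± 1.07 and 7.86 ± 0.84. ACTB Cq minus TBP1 Cq was 0.47 higher in FFC-DIA (SE 0.19, exact permutation p = 0.0378), and this difference did not pass adjustment over the 6 comparisons made of the reference genes (adjusted p = 0.227). A late Cq in a reference assay was seen in 3 animals. RPL4 was at 10.2 in FFC-DIA animal 6, TBP1 at 13.2 in SD animal 1 and GAPDH at 20.6 in SD animal 6, where the next highest GAPDH Cq among the SD animals was 9.26. GAPDH was not used as a reference. The number of cDNA preparations behind a value also differed with the group: by the decimals of the Cq values, 5 of 7 SD animals and 1 of 8 FFC-DIA animals had a single cDNA preparation.

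A Cq reports the stretch between 2 primers, and the primer pairs of the 4 genes that the results below turn on most are printed here as given in the study's primer list, 5′ to 3′, with the last 5 bases, from which the polymerase extends, in capitals.
CDKN1A forward: aggaccatgtggaccTGTTG
CDKN1A reverse: ccggcgtttggagtgGTAGA
CX3CL1 forward: atcatgcggccaaaaTGTCG
CX3CL1 reverse: cccggcggtttagatAGTCC
CD8A forward: cggcatccttctcctGTCAC
CD8A reverse: gggcatgtcgccatgTTAGA
SLC2A1 forward: ctccctgcagtttggCTACA
SLC2A1 reverse: gagatgctctccccaTAGCG
All 8 primers are 20 bases long and hold 10 to 12 G or C bases, and the length of the amplified stretch is not given in the sources used here.

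Few of the 73 genes differed between FFC-DIA and SD. On the reference-gene scale 2 genes, or 2.74%, passed the adjusted test, both higher in FFC-DIA. CDKN1A was one of them, and the other is not reported here. On the panel-mean scale 3 genes, or 4.11%, passed: CDKN1A and CX3CL1 were higher and CD8A was lower in FFC-DIA. At these shares, a gene list below in which none passed says little about that list. Animals of the groups did not overlap for 2 genes, or 2.74%, on each scale. Before adjustment, 8 genes on the reference-gene scale and 11 on the panel-mean scale had a p under 0.05. In size, 14 genes were at least 1.5-fold higher and 3 at least 1.5-fold lower in FFC-DIA on the reference-gene scale, against 6 and 6 on the panel-mean scale.

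**Figure D1:**
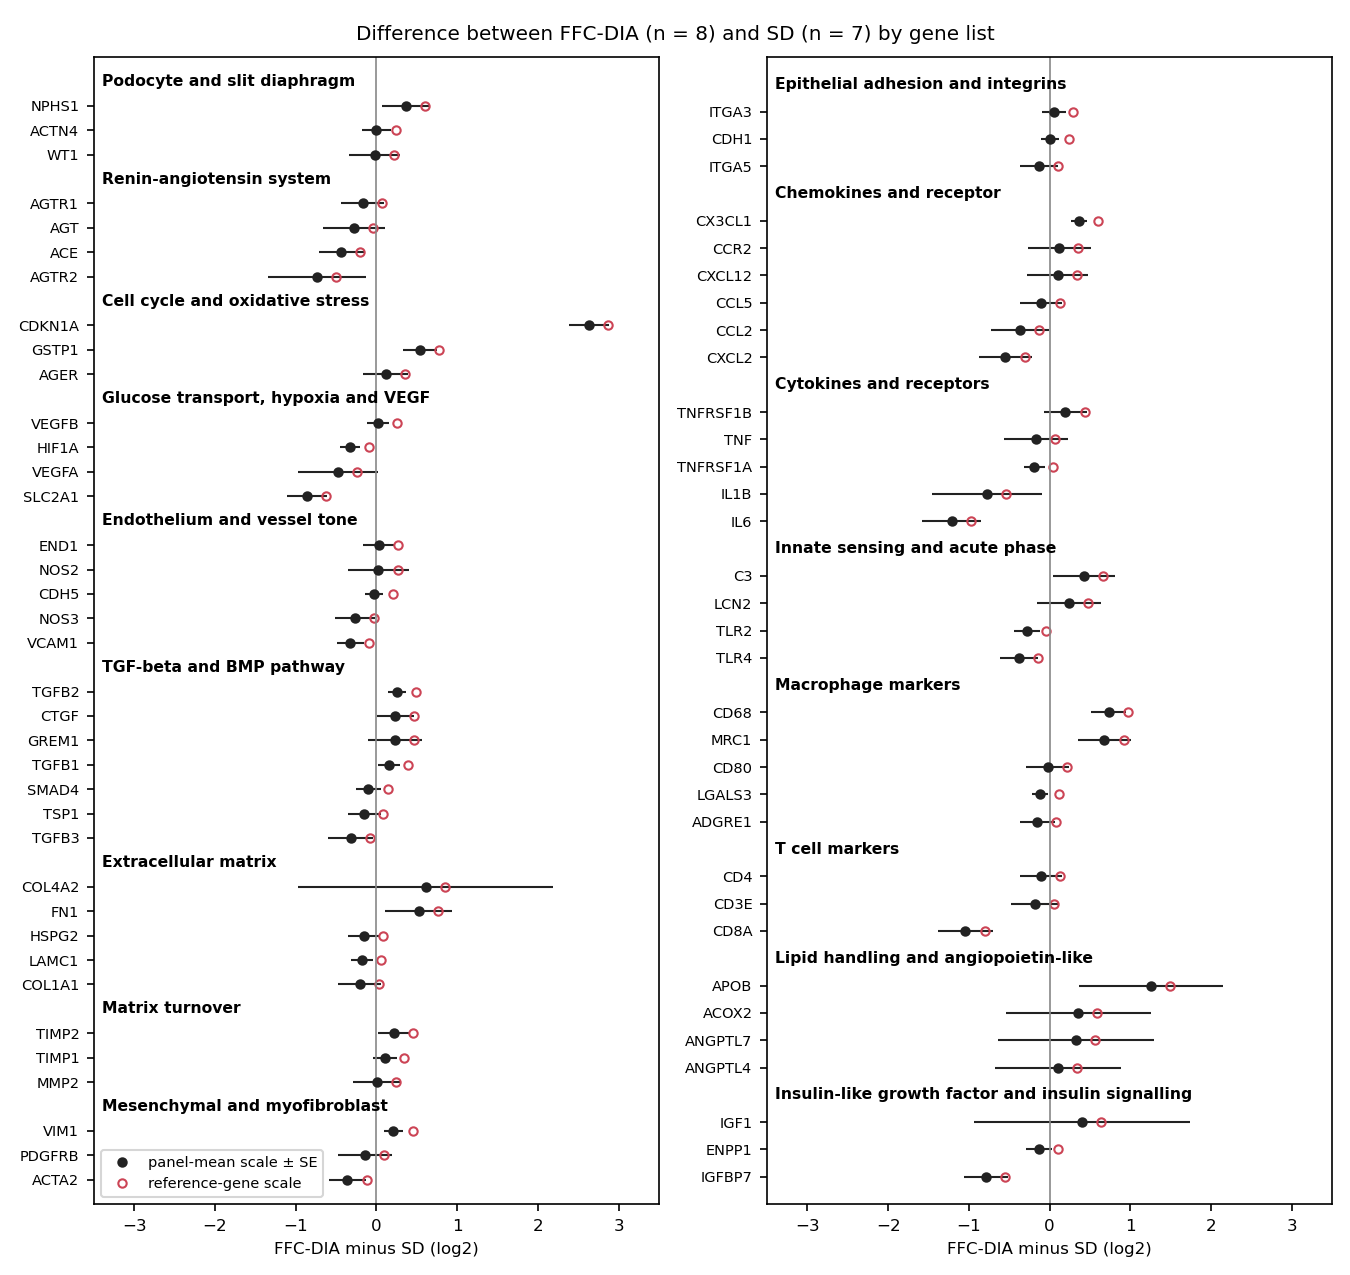
Difference in mean level between FFC-DIA (n = 8) and SD (n = 7) in log2 units for 70 of the 73 kidney genes, grouped by list; filled points give the panel-mean scale with its standard error, open red points the reference-gene scale. CDKN1A stands at 2.63 on the panel-mean scale, and most other genes lie within 1 log2 unit of 0 on both scales.

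How the panel as a whole stood depended on the reference. Against ACTB, TBP1 and RPL4 together, 54 genes were higher and 19 lower in FFC-DIA, with a median difference of 0.21 over the 73 genes, and the panel mean per animal did not pass the test (difference 0.24, SE 0.22, exact permutation p = 0.296). The panel mean ranged from -0.39 to 0.79 in the FFC-DIA animals and from -0.50 to 0.53 in the SD animals, so the groups overlapped over most of their range. Against TBP1 alone the split turned to 23 higher and 50 lower, with a median of -0.16. Against RPL4 alone it was 66 and 7, with a median of 0.50. Against the panel mean 35 genes were higher and 38 lower, and against the panel median 22 and 51. On the panel-mean scale the differences of the 73 genes average 0 by construction, so that scale cannot show a shift shared by the panel. Between the reference-gene scale and the panel-mean scale, 19 genes changed the sign of their difference. For this reason the values below are given on the panel-mean scale unless stated, with the reference-gene value where the scales differ in a call.

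**Figure D2:**
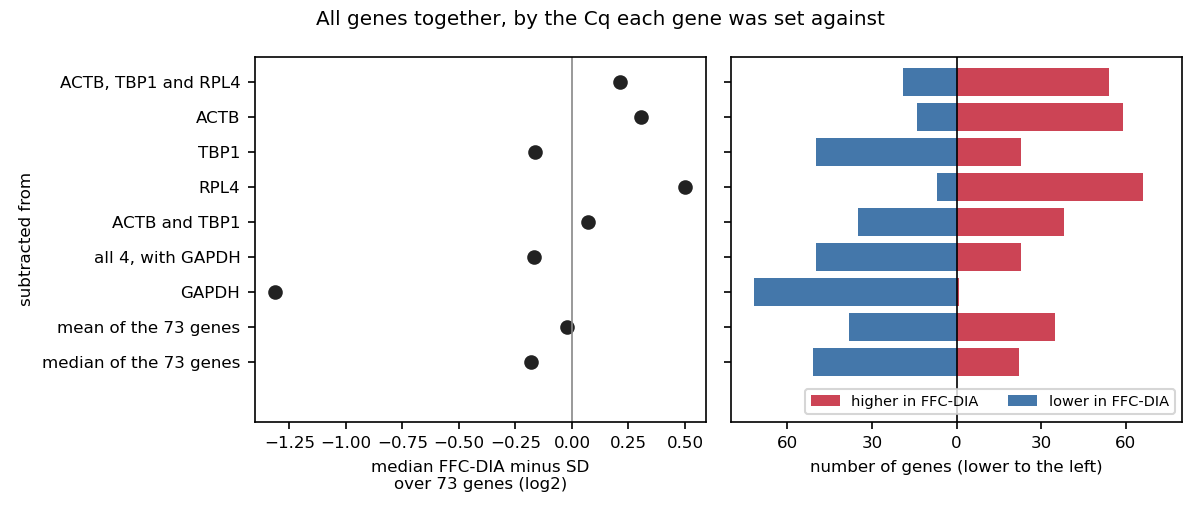
Median difference between FFC-DIA and SD over the 73 kidney genes in log2 units (left) and the number of genes higher (red, to the right) and lower (blue, to the left) in FFC-DIA (right), by the Cq that each gene was subtracted from. The median runs from -1.31 against GAPDH, where 1 SD animal had a Cq of 20.6, to 0.50 against RPL4.

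CDKN1A encodes p21, an inhibitor of cyclin-dependent kinases that halts the cell cycle after damage and in senescence. Its level was significantly higher in FFC-DIA compared to SD on both scales. On the panel-mean scale the lowest, median and highest FFC-DIA animals were at 1.91, 2.52 and 3.39, and the SD animals at -0.93, 0.16 and 0.45. Every FFC-DIA animal lay above every SD animal, with 1.46 log2 units between the groups. The mean difference was 2.63 (SE 0.25), a 6.19-fold higher level (exact permutation p = 0.000155, adjusted p = 0.00567). On the reference-gene scale the animals were at 1.78, 2.75 and 4.18 against -0.73, 0.005 and 0.75, a difference of 2.87 (SE 0.34) or 7.29-fold (exact permutation p = 0.000155, adjusted p = 0.0113). All 13 FFC animals lay below every FFC-DIA animal on the panel-mean scale, from -1.05 to 0.19. Among animals with 2 cDNA preparations (7 FFC-DIA and 2 SD) the difference was 2.76, and among those with 1 (1 FFC-DIA and 5 SD) it was 3.29. The reference-gene call was lost when GAPDH joined the other 3 references (exact permutation test, adjusted p = 0.0567) or stood alone, and both calls within strata of the cDNA number, where a single gene cannot pass.

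The same list held the glutathione S-transferase GSTP1, a detoxifying enzyme of the oxidative stress response, and AGER, the receptor for advanced glycation end products. GSTP1 was at 0.25, 0.53 and 1.12 in the FFC-DIA animals and at -0.86, 0.16 and 0.62 in the SD animals. All 8 FFC-DIA animals were above the SD mean, and the ranges overlapped. The difference of 0.54 (SE 0.21) did not pass adjustment (exact permutation p = 0.0141, adjusted p = 0.129), and it was 0.07 among animals with 2 cDNA preparations and 0.55 among those with 1, of which 1 was FFC-DIA. With the reference reduced to ACTB (exact permutation test, adjusted p = 0.0454) or to ACTB and TBP1 (adjusted p = 0.0227) it passed. Apart from runs without 1 animal, these were the only 2 of 16 alternatives on the reference-gene scale in which it passed. It did not pass in any of the 11 on the panel-mean scale. AGER, with a mean Cq of 18.6, differed by 0.12 (SE 0.28). With the reference genes it differed by 0.35 (SE 0.17, exact permutation p = 0.0656, adjusted p = 0.435), and 6 of 8 FFC-DIA animals lay above every SD animal.

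CX3CL1 encodes fractalkine, a membrane-bound chemokine of endothelium and tubule epithelium that captures monocytes and T cells carrying CX3CR1. On the panel-mean scale its FFC-DIA animals lay close together at 0.25, 0.36 and 0.48, with a standard deviation of 0.093, and the SD animals at -0.47, 0.10 and 0.19. The groups did not overlap, but only 0.05 log2 units separated them. The panel mean holds genes with a wide range over the 15 animals, such as COL4A2 (8.38) and IGF1 (5.77). Whether so narrow a gap stays without them was not tested. The difference of 0.37 (SE 0.095), or 1.29-fold, passed the adjusted test (exact permutation p = 0.000155, adjusted p = 0.00567). With the reference genes the animals spread more, with a standard deviation of 0.46 in FFC-DIA and 0.53 in SD, the groups overlapped and the difference of 0.60 (SE 0.26) did not pass (exact permutation p = 0.0336, adjusted p = 0.379). With the panel median in place of the mean the difference was 0.21 and the adjusted p of the exact permutation test 0.18, and in limma on the panel-mean scale the adjusted p was 0.0951. The difference was 0.24 among animals with 2 cDNA preparations, of which 2 were SD, and 0.48 among those with 1, of which 1 was FFC-DIA. In the FFC animals CX3CL1 ran from -0.28 to 1.27, with 6 of 13 above every SD animal.

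Of the 6 genes for chemokines and a chemokine receptor, CX3CL1 rose on the panel-mean scale and the other 5 did not pass on either scale. Over the 73 genes 3 passed on the panel-mean scale and 2 on the reference-gene scale. The median difference of the list was -0.01, beside -0.02 over the 73 genes. CCL2, which attracts monocytes, differed by -0.37 (SE 0.36), and its receptor CCR2 by 0.12 (SE 0.39). CCL5, which attracts T cells, differed by -0.11 (SE 0.26). CXCL2, a neutrophil chemokine, had the lowest value of the list at -0.55 (SE 0.33).

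**Figure D3:**
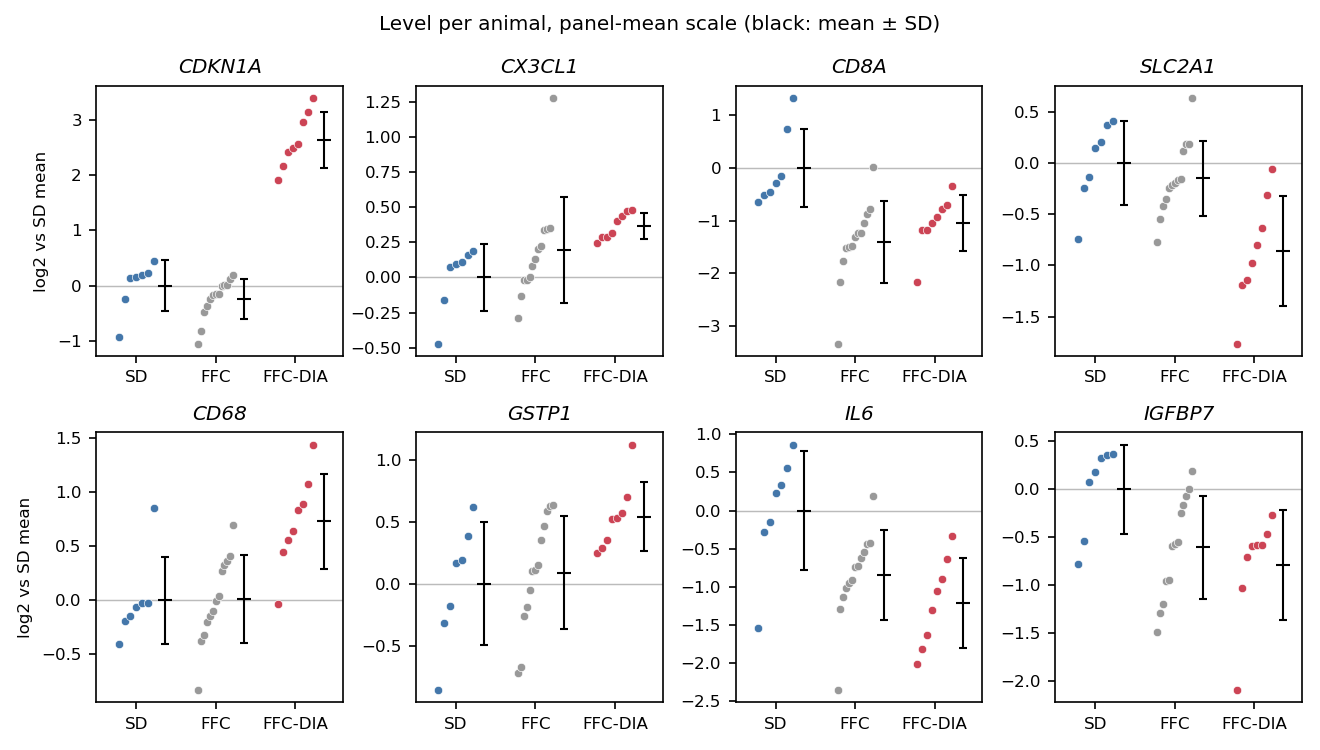
Level of 8 genes in each animal on the panel-mean scale, in log2 units relative to the SD mean, for SD (blue, n = 7), FFC (grey, n = 13, for comparison only) and FFC-DIA (red, n = 8), with the mean and standard deviation in black. CDKN1A and CX3CL1 are the genes whose FFC-DIA and SD animals do not overlap, while the FFC-DIA animals of the other 6 genes share part of their range with SD.

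CD8A, the alpha chain of the coreceptor of cytotoxic T cells, was lower in FFC-DIA compared to SD. The FFC-DIA animals were at -2.17, -0.98 and -0.34 and the SD animals at -0.64, -0.29 and 1.32. Of the 8 FFC-DIA animals, 7 lay below every SD animal. The difference of -1.04 (SE 0.34), or 2.06-fold lower, passed the adjusted test on the panel-mean scale (exact permutation p = 0.00171, adjusted p = 0.0416). It did not pass on the reference-gene scale, where it was -0.80 (SE 0.37, exact permutation p = 0.0398, adjusted p = 0.379), unless TBP1 was the only reference (adjusted p = 0.034). The call was close to the threshold: in limma the adjusted p was 0.067, and after leaving out 1 animal at a time the call held in 4 of 15 runs. Among animals with 2 cDNA preparations the difference was -0.42 with overlapping groups, and among those with 1 it was -2.35, where the only FFC-DIA animal was the lowest of its group. The FFC animals were at -3.33, -1.32 and 0.02, and 12 of 13 lay below every SD animal. The mean Cq of the assay was 17.6. The other T cell genes, CD3E of the T cell receptor complex and CD4 of helper T cells, differed by -0.19 (SE 0.29) and -0.10 (SE 0.26) and did not pass.

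None of the 5 genes for cytokines and their receptors passed on either scale. IL6, the acute-phase cytokine interleukin 6, had the lowest difference of the 73 genes on the panel-mean scale. Its FFC-DIA animals were at -2.02, -1.18 and -0.34 and its SD animals at -1.54, 0.23 and 0.86. All 8 FFC-DIA animals lay below the SD mean, while 1 SD animal was within the FFC-DIA range. The difference was -1.21 (SE 0.36, exact permutation p = 0.00684, adjusted p = 0.0891), and it passed in limma on 3 groups (adjusted p = 0.0206). Apart from runs without 1 animal, it did not pass in 9 of 11 alternatives on the panel-mean scale and in all 16 on the reference-gene scale. IL1B differed by -0.78 (SE 0.68), TNF by -0.17 (SE 0.39), and the TNF receptors TNFRSF1A and TNFRSF1B by -0.19 (SE 0.13) and 0.20 (SE 0.26).

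Of the 5 macrophage markers none passed on either scale. CD68, a lysosomal protein of macrophages, was at -0.03, 0.74 and 1.44 in FFC-DIA and at -0.40, -0.06 and 0.85 in SD. Of the FFC-DIA animals, 3 lay above every SD animal, and the highest SD animal stood apart from the other 6. The difference of 0.73 (SE 0.22), or 1.66-fold, did not pass adjustment (exact permutation p = 0.00746, adjusted p = 0.0891), but it passed when SD animal 4 was left out (exact permutation test, adjusted p = 0.0486) and in limma on 3 groups (adjusted p = 0.0372). In the other 10 of 11 panel-mean alternatives, apart from runs without 1 animal, it did not pass. MRC1, the mannose receptor, was at -0.18, 0.38 and 2.23 in FFC-DIA and at -0.37, 0.02 and 0.18 in SD. Its standard deviation was 0.91 in FFC-DIA and 0.19 in SD, and its difference 0.68 (SE 0.33, exact permutation p = 0.0645). The other markers, ADGRE1, CD80 and LGALS3, differed by -0.15, -0.02 and -0.11, so the list had a median of -0.02.

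Among the 4 innate sensing and acute phase genes, complement C3 and the tubular injury marker LCN2 differed by 0.42 (SE 0.38) and 0.24 (SE 0.40). The toll-like receptors TLR2 and TLR4 differed by -0.28 (SE 0.16) and -0.38 (SE 0.24). None passed on either scale.

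SLC2A1 encodes the glucose transporter GLUT1. Its FFC-DIA animals were at -1.76, -0.89 and -0.06 and its SD animals at -0.74, 0.15 and 0.41. All 8 FFC-DIA animals were below the SD mean and 5 lay below every SD animal. The difference was -0.86 (SE 0.24), or 1.82-fold lower, with an exact permutation p of 0.00544 and an adjusted p of 0.0891. With the reference genes the difference was -0.62 (SE 0.20, exact permutation p = 0.00497, adjusted p = 0.121). It passed adjustment with TBP1 alone (exact permutation test, adjusted p = 0.0303) and with ACTB and TBP1 (adjusted p = 0.0312) as references, with the panel median (adjusted p = 0.0369) and in limma on 3 groups (adjusted p = 0.0206). Apart from runs without 1 animal, SLC2A1 did not pass in 14 of 16 alternatives on the reference-gene scale and 9 of 11 on the panel-mean scale. HIF1A, a transcription factor of the hypoxia response that acts on SLC2A1 and VEGFA, differed by -0.33 (SE 0.12, exact permutation p = 0.0213, adjusted p = 0.155). On this scale 5 of 8 FFC-DIA animals were below every SD animal. With the 3 reference genes HIF1A differed by -0.09 (SE 0.14, exact permutation p = 0.527, adjusted p = 0.893), and no FFC-DIA animal was below every SD animal. It passed against TBP1 alone (exact permutation test, adjusted p = 0.0303). VEGFA, the vascular growth factor of podocytes and tubules, differed by -0.48 (SE 0.50) with a wide spread, from -2.25 to 1.18 in FFC-DIA. VEGFB differed by 0.02 (SE 0.14). The list had a median of -0.40 and none of its 4 genes passed on either scale.

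None of the 19 genes on the 4 fibrosis lists passed on either scale, beside 2 of the 73 genes on the reference-gene scale and 3 on the panel-mean scale. Of the 7 genes of the TGF-beta and BMP pathway, 6 were higher in FFC-DIA on the reference-gene scale, beside 54 of the 73 genes, and 4 on the panel-mean scale, beside 35 of the 73, with medians of 0.39 and 0.16. TGFB2, a ligand of the pathway, was at -0.13, 0.27 and 0.55 in FFC-DIA and at -0.32, 0.12 and 0.25 in SD, and 5 of 8 FFC-DIA animals were above every SD animal. Its difference was 0.26 (SE 0.11, exact permutation p = 0.0395, adjusted p = 0.262). TGFB1 differed by 0.16 (SE 0.13) and TGFB3 by -0.32 (SE 0.28). CTGF, a target of the pathway, differed by 0.23 (SE 0.23) on the panel-mean scale and 0.47 (SE 0.22) on the reference-gene scale (exact permutation p = 0.0514, adjusted p = 0.379). Without 1 animal at a time, CTGF ran from 0.096 to 0.36 and from 0.33 to 0.56 on these scales. SMAD4, the shared signal transducer, differed by -0.10 (SE 0.16).

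None of the 5 matrix genes passed. COL1A1, the chain of interstitial collagen, differed by -0.21 (SE 0.26), LAMC1 of the basement membrane by -0.17 (SE 0.14) and the heparan sulphate proteoglycan HSPG2 by -0.16 (SE 0.19). FN1, fibronectin, was the member with the smallest p at 0.52 (SE 0.41, exact permutation p = 0.225) and stood at 0.76 (SE 0.55) with the reference genes. Leaving out 1 animal moved FN1 from 0.25 to 0.72 on the panel-mean scale and from 0.41 to 1.05 with the reference genes. The low ends were those without SD animal 7. COL4A2, a chain of basement membrane collagen, differed by 0.61 (SE 1.58) on the panel-mean scale and 0.85 (SE 1.51) with the reference genes. Of the genes of matrix turnover, the gelatinase MMP2 differed by 0.003 (SE 0.30), and the metalloproteinase inhibitors TIMP1 and TIMP2 by 0.10 (SE 0.15) and 0.22 (SE 0.20). Of the mesenchymal genes, VIM1 (vimentin) differed by 0.21 (SE 0.11), PDGFRB by -0.14 (SE 0.34) and ACTA2, the smooth muscle actin of myofibroblasts, by -0.36 (SE 0.23).

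The podocyte list held 4 genes, and all 4 had a higher mean in FFC-DIA on the reference-gene scale, beside 54 of the 73 genes. On that scale 1 passed, beside 2 of the 73. Against the panel mean 3 of the 4 were higher, beside 35 of the 73, and none passed, beside 3 of the 73. NPHS1, nephrin of the slit diaphragm, differed by 0.36 (SE 0.30) on the panel-mean scale and by 0.60 (SE 0.42) on the reference-gene scale, and without FFC-DIA animal 6 by 0.17 and 0.33. ACTN4, an actin crosslinker, differed by 0.001 (SE 0.17) and the transcription factor WT1 by -0.02 (SE 0.32) on the panel-mean scale. Of the 5 genes of the renin-angiotensin system, all 5 had a lower mean in FFC-DIA on the panel-mean scale, beside 38 of the 73 genes, and 4 had on the reference-gene scale, beside 19 of the 73. None passed on either scale. ACE, the angiotensin converting enzyme, differed by -0.43 (SE 0.28), by -0.96 among animals with 2 cDNA preparations (7 FFC-DIA and 2 SD) and by -0.78 among those with 1 (1 FFC-DIA and 5 SD). The angiotensin precursor AGT differed by -0.28 (SE 0.39) and the receptors AGTR1 and AGTR2 by -0.17 (SE 0.26) and -0.74 (SE 0.61).

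The vascular cadherin CDH5 differed by -0.03 (SE 0.11) and the epithelial cadherin CDH1 by 0.009 (SE 0.11), and both had a narrow spread in both groups. The adhesion molecule VCAM1 differed by -0.32 (SE 0.17, exact permutation p = 0.0625), and the nitric oxide synthases NOS2 and NOS3 by 0.03 (SE 0.37) and -0.26 (SE 0.25). The integrins ITGA3 and ITGA5 differed by 0.06 (SE 0.14) and -0.13 (SE 0.24). None of the 5 endothelial and 3 epithelial genes passed on either scale.

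The lipid list had the highest median after the list of CDKN1A, at 0.34. All 4 genes had a higher mean in FFC-DIA on both scales, beside 54 and 35 of the 73 genes, and none passed. For ACOX2 alone the median on the panel-mean scale was lower in FFC-DIA, at -0.79 against -0.48 in SD. Each of them had a wide spread between animals. APOB, the apolipoprotein of low-density lipoprotein, was at -0.21, 0.88 and 3.52 in FFC-DIA and at -3.15, 0.06 and 2.73 in SD, a difference of 1.26 (SE 0.89, exact permutation p = 0.174). Runs without 1 animal gave APOB differences from 0.73 to 1.71. The peroxisomal oxidase ACOX2, ANGPTL4, an inhibitor of lipoprotein lipase, and ANGPTL7 differed by 0.36 (SE 0.90), 0.10 (SE 0.78) and 0.33 (SE 0.97). ANGPTL7 had a mean Cq of 19.7.

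Among the insulin-related genes, IGFBP7, a binding protein of insulin-like growth factors, was at -2.10, -0.58 and -0.27 in FFC-DIA and at -0.77, 0.18 and 0.37 in SD. All 8 FFC-DIA animals were below the SD mean and 2 were below every SD animal. The difference of -0.79 (SE 0.27), or 1.73-fold lower, did not pass adjustment (exact permutation p = 0.00855, adjusted p = 0.0891), and it passed with the panel median (adjusted p = 0.034). Apart from runs without 1 animal, the difference did not pass in 9 of 11 alternatives on the panel-mean scale. With the reference genes it was -0.55 (SE 0.37, exact permutation p = 0.158). The assay had a mean Cq of 17.8. ENPP1, an inhibitor of insulin receptor signalling, differed by -0.13 (SE 0.16).

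Some genes split the animals rather than the groups. For 3 genes, singled out after their values were seen, the 15 animals fell on either side of a gap of more than 2 log2 units with at least 3 animals on each side. COL4A2 had a gap of 4.21, with 4 FFC-DIA and 2 SD animals above it. Its Cq was 8.69 to 10.2 in those animals and 14.0 to 17.3 in the rest. IGF1, insulin-like growth factor 1, had a gap of 3.29, with 5 FFC-DIA and 4 SD animals above it. Its Cq was 14.1 to 18.2 in those animals and 19.6 to 20.9 in the rest. Whether the transcript or the assay differed between these animals was not tested. ANGPTL7 had a gap of 2.03, with 7 FFC-DIA and 5 SD animals above it. The groups were mixed on both sides in each case, and the standard error of the group difference was 1.58 for COL4A2 and 1.34 for IGF1, beside 0.25 for CDKN1A. Over the whole panel the median standard deviation of a gene on the panel-mean scale was 0.50 in both FFC-DIA and SD, and 28 of the 73 genes had the larger value in FFC-DIA. With the reference genes the medians were 0.57 and 0.67, and 27 of the 73 genes had the larger value in FFC-DIA.

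**Figure D4:**
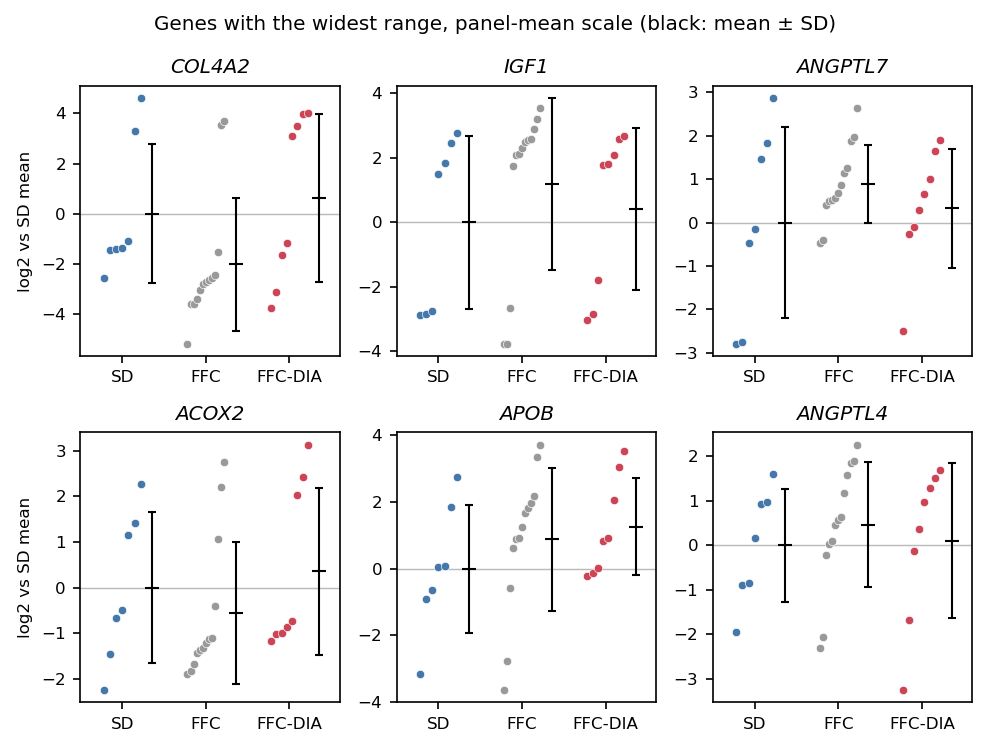
Level of the 6 genes with the widest range over the 15 FFC-DIA and SD animals, on the panel-mean scale in log2 units relative to the SD mean, with each animal as a point (SD blue, FFC grey, FFC-DIA red) and the mean and standard deviation in black. COL4A2 and IGF1 show a high and a low set of animals in each group, and the range of COL4A2 was 8.38 log2 units.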

How the data were processed

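Kidney RNA (500 ng) was reverse transcribed, pre-amplified for 16 cycles and measured with EvaGreen on a BioMark HD chip. The authors deposited non-normalized Cq values. The study made 2 cDNA preparations per RNA and accepted them where they lay within 1.5 cycles. That accepted pairs were averaged was inferred from the decimals of the values. The CXCL2 values carried a further decimal in every animal, so they were left out of that inference, and how they were processed is not known. The efficiency correction of the study was not repeated, so a doubling per cycle was assumed. A deposited table of the authors' own fold changes was not used. Every column matched 1 labelled animal, and each animal was 1 replicate. Differences were tested in Python 3.11.15 with exact permutations (numpy, scipy), with limma 3.58.1 in R 4.3.3 as an alternative, and the scripts were tested on simulated data. Other alternatives were each reference gene, the panel median, rank, linear and Bonferroni tests, the replicate number as a block, strata by cDNA number, late assays and each animal left out. Genes followed through the alternatives were those that passed, did not overlap or had the 12 smallest p-values on either scale, plus 1 gene for each list without another reported gene. Other members are named with their values to describe the lists. Members and lists were chosen with earlier results of these data known. Of the 77 assay names, 72 are RefSeq symbols of the pig. A further 3 genes are kept in all counts and are not reported here. The number of animals limits the precision, and no read depth applies to Cq values.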

Additional observations from a re-analysis of the deposited data

Results flagged for a closer look

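Among the values tested, 8 animals' values stood far from the rest of their group, by the ratio of the gap to the nearest animal over the range of the group. Chance marks about 1 in 20 groups, and 94 groups of values were examined. GAPDH had a Cq of 20.56 in SD animal 6 with the next at 9.255, and 11.2 in FFC-DIA animal 6 with the next at 8.764. TBP1 had a Cq of 13.21 in SD animal 1, with the next at 11.62. On the panel-mean scale, CD8A was at -2.17 in FFC-DIA animal 6, IGFBP7 at -2.10 in FFC-DIA animal 7, CD68 at 0.85 in SD animal 4 and VIM1 at -0.43 in SD animal 3. On the reference-gene scale, FN1 was at -1.22 in FFC-DIA animal 1, where the next animal was at 0.78.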

How the results depend on the processing

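CDKN1A kept its direction under all alternatives run on both scales, and CX3CL1 under all on the panel-mean scale. CDKN1A passed in 15 of 15 runs that left out 1 animal on both scales, and CX3CL1 in 15 of 15 on the panel-mean scale. CD8A passed in 4 of 15 (adjusted p from 0.0142 to 0.113), those without FFC-DIA animal 4 and without SD animals 3, 6 and 7. Leaving out SD animal 7 also brought IL6 (adjusted p = 0.0162) and IGFBP7 (adjusted p = 0.034) past the threshold on the panel-mean scale, and leaving out FFC-DIA animal 4 SLC2A1 (adjusted p = 0.0425). Leaving out SD animal 4 did so for CD68 (adjusted p = 0.0486). With the reference genes SLC2A1 passed without FFC-DIA animal 6 and IL6 without SD animal 7. All these are by the exact permutation test. Leaving out 1 animal gave 2 to 3 genes on the reference-gene scale, 2 to 5 on the panel-mean scale and a median over the panel from 0.0683 to 0.28. FFC-DIA animal 6, SD animal 1 and SD animal 6 left out together, chosen after the data were seen, gave 2 genes on each scale.

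The count on the reference-gene scale was 3 with ACTB, where GSTP1 was gained, and 5 with TBP1, where CD8A, HIF1A and SLC2A1 were gained. It was 4 with ACTB and TBP1, where GSTP1 and SLC2A1 were gained, 1 with RPL4 (CDKN1A), 0 with GAPDH and 0 with all 4. At an unadjusted p under 0.05 the exact test found 1 gene with GAPDH and 4 with all 4, and limma on the 3 reference genes called 2. The panel median of differences turned to -0.16 with TBP1, -1.31 with GAPDH and -0.17 with all 4. With GAPDH, 1 SD animal decides the mean, and the differences of named genes were -0.75 for GSTP1, -0.56 for CD68, -0.92 for CX3CL1, -1.06 for CTGF, -1.03 for TGFB2, -1.17 for AGER, -1.08 for VIM1, -0.93 for NPHS1, -0.76 for FN1, -1.07 for TIMP2, -1.42 for ITGA5 and -0.0311 for APOB. With TBP1, ITGA5 was at -0.27 and AGER at -0.0258. With all 4, ITGA5 was at -0.27 and AGER at -0.0294, and with ACTB and TBP1 ITGA5 was at -0.036. With RPL4, VCAM1 was at 0.20, TLR2 at 0.24, HIF1A at 0.20 and ACE at 0.0897. With ACTB, VCAM1 was at 0.00284 and TLR2 at 0.0446. With the panel median, AGER was at -0.0427 and 4 genes passed, CDKN1A, CD8A, IGFBP7 and SLC2A1.

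Strata by cDNA number left 216 labellings, too few for a single gene to pass adjustment, and gave 0 genes on both scales, with 7 and 9 at an unadjusted p under 0.05. A limma fit with that number as a covariate, added later, called 1 gene on each scale, CDKN1A, and limma on the 2 groups called 1 on the panel-mean scale, also CDKN1A. In limma on 3 groups 4 genes passed on the panel-mean scale, CDKN1A, CD68, IL6 and SLC2A1, so CX3CL1 and CD8A were lost. In both cDNA analyses HIF1A was at 0.11, VCAM1 at 0.30 and TLR2 at 0.26 on the reference-gene scale, and CTGF at -0.0188 and ITGA5 at 0.16 on the panel-mean scale. By ranks, TLR2 differed by 0.27 mean ranks on the reference-gene scale. Without the 3 animals together, ITGA5 was at -0.12.

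The replicate numbers share only a number: deviations of animals with the same number correlated between -0.467 and 0.536 over 7 pairs, and 1 of 7 correlated best with its own number. The replicate block, fitted in limma without FFC-DIA animal 8, which shares its number with no SD animal, gave 2 genes on the reference-gene scale, both also called without it, and 3 on the panel-mean scale, of which only CDKN1A was called without it. There IL6 (limma adjusted p = 0.0262) and IGFBP7 (limma adjusted p = 0.02) were gained, while CX3CL1 and CD8A did not pass, as in limma on 2 groups without the block. With the block the panel median was 0.0683, the value that leaving out FFC-DIA animal 8 alone gives, and ITGA5 was at -0.0637. Leaving out 1 animal moved VCAM1 from -0.27 to 0.0825, ITGA5 from -0.0728 to 0.31 and TLR2 from -0.17 to 0.0811 on the reference-gene scale, and AGER from -0.0108 to 0.29 on the panel-mean scale. It moved the Cq difference of ACTB from -0.0700 to 0.25, of RPL4 from -0.0496 to 0.49, of GAPDH from -1.93 to 0.16 and of ACTB minus TBP1 from 0.37 to 0.57, which passed (adjusted p = 0.049) without FFC-DIA animal 6. The cause of these changes was not tested.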
